A study of Homo sapiens with 4 samples.

Results

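The replication-dependent histone genes are the clustered genes that supply new histone protein when DNA is copied. They were taken as every row whose symbol begins with HIST1H, HIST2H, HIST3H or HIST4H, which gave 73 of the 23394 genes in the count table. The letters after the cluster name set the class, giving 6 H1, 18 H2A, 20 H2B, 14 H3 and 15 H4 genes. These numbers include HIST1H2APS1, HIST2H2BA and HIST2H2BC, which have no protein-coding transcript in the GENCODE annotation. The study compared SUM159, a breast cancer cell line, in 2 control libraries from cells given DMSO and 2 knockdown libraries from cells given doxycycline. Doxycycline switched on an siRNA against SHARP, the gene listed as SPEN, which encodes a large nuclear corepressor. All cells grew in F12 medium with FBS, insulin and hydrocortisone. Since the controls received no doxycycline, effects of that drug and of the siRNA cannot be told apart.

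H2A, H2B, H3 and H4 form the core of the nucleosome around which DNA is wrapped, and H1 is the linker histone that binds where the DNA enters and leaves. Most replication-dependent histone mRNAs do not end in a poly(A) tail. They end just past a short stem-loop that is bound by the protein SLBP, and they build up in S phase and are degraded when DNA synthesis stops. Some of these genes also give longer polyadenylated mRNAs.

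The libraries held 15641296 to 17197715 counts, and 13915 genes passed the filter on low counts and were tested. Nothing in the labels says that the 2 libraries of a group came from separate cultures, so p-values measure only the spread between these libraries. Levels are CPM, counts scaled to the size of their library, here after TMM scaling, and a fold change is knockdown over control on the log2 scale. A gene was called where the adjusted p of edgeR's quasi-likelihood test over all tested genes was under 0.05. SPEN had 3129 and 3208 counts in the control libraries against 1660 and 1666 in those of the knockdown, a log2 fold change of -0.78 (SE 0.035, adjusted p = 1.39e-10). The mesenchymal marker VIM stood at 3257 ± 2.99 CPM in the controls and at 5020 ± 55.2 CPM in the knockdown (SD, n = 2). It was called higher, at a log2 fold change of 0.62. The epithelial markers CDH1, GRHL2 and KRT19 were at 0 in all 4 libraries. The summed level of 11 markers of leukocytes, endothelium and fat was 39.1 to 42.9 CPM in the controls and 47.6 to 48.0 CPM in the knockdown. Most of this sum was CD68, at 29.1 and 33.7 CPM in the controls and at 40.7 and 37.4 CPM in the knockdown. Of these 11, 2 were called (CD68 higher and PLIN1 lower), and their part in the results was not tested.

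Counted mRNA of the core histone classes was lower in the knockdown. The labels describe the libraries as polyA RNA, and most histone mRNAs have no such tail. These counts and the class sums below therefore need not reflect all histone mRNA. Together the 73 genes took 0.438% and 0.452% of all control counts, against 0.352% and 0.346% of the knockdown counts, so the groups did not overlap. Of the 73 genes, 60 were tested, 43 were called lower, 1 was called higher and 16 were not called. Over all tested genes 24.9% were called lower and 25.1% higher, against 71.7% of the tested histone genes called lower. The median log2 fold change of the 60 was -0.35, against 0.00 over all tested genes, of which 16.4% lay below the histone median. In 47 of the 60 both knockdown libraries lay below both control libraries, a pattern that 37.2% of all tested genes showed. With a test against a fold change of 1.2 in place of no change (edgeR's glmTreat), 29 histone genes were called lower and 0 higher, where 9.38% of all tested genes were lower and 8.74% higher. In a bulk library, fewer cells in S phase and less histone mRNA per cell cannot be told apart.

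**Figure D1:**
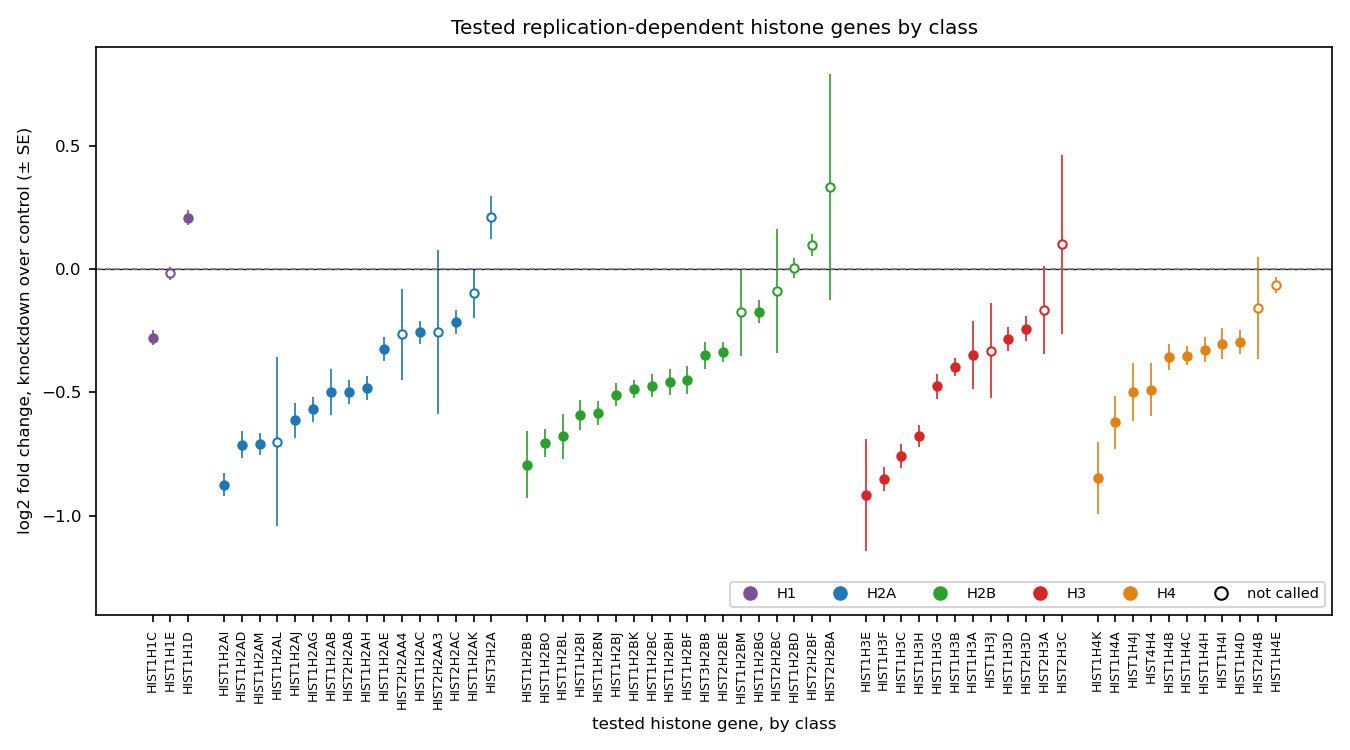
Log2 fold change, knockdown over control, of the 60 tested histone genes, grouped by class and sorted within it. Bars are standard errors, filled points passed the threshold, and the dashed line, which lies on 0, is the median of all tested genes. Filled points lie below 0 in every class, and HIST1H1D is the filled point above it.

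The 4 core classes were each lower when their genes were added up, a quantity that does not depend on how reads were divided among similar copies of a class. Any reads left out because they match several copies would be missing from the sums, and how such reads were handled is not known. Summed H3 mRNA was 629 and 645 CPM in the controls and 448 and 449 CPM in the knockdown, a log2 ratio of -0.51. Summed H2A mRNA was 804 and 826 CPM against 604 and 598, a log2 ratio of -0.44. These are losses of 29.7% of the control level for H3 and of 26.2% for H2A. Summed H2B mRNA was 1110 and 1132 CPM in the controls and 879 and 862 CPM in the knockdown, a log2 ratio of -0.36. Summed H4 mRNA was 696 and 727 CPM against 591 and 580, a log2 ratio of -0.28. In each core class the 2 groups were separate, and the gap was larger than the spread within either group.

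For linker histone mRNA the log2 ratio lay closer to 0. Summed H1 mRNA was 1072 and 1124 CPM in the controls and 1063 and 1027 CPM in the knockdown, a log2 ratio of -0.07. The H1 means were 1098 ± 36.9 and 1045 ± 25.9 CPM (SD, n = 2), and the lower control library lay just above the higher knockdown library. H1 genes took 24.9% and 25.2% of the histone CPM of the controls and 29.7% and 29.2% of that of the knockdown libraries. The share of H3 went from 14.6% and 14.5% to 12.5% and 12.8%, and that of H2A from 18.6% and 18.5% to 16.9% and 17.0%. The share of H4 moved least, from 16.1% and 16.3% to 16.5% in both knockdown libraries. These ratios were not tested, since sums over a class are described and not fitted. The log2 ratio of the H1 sum was -0.12 with library size alone and -0.041 without control replicate 2 (-0.045 without knockdown replicate 2), and with HIST1H1D left out of the sum it was -0.15.

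**Figure D2:**
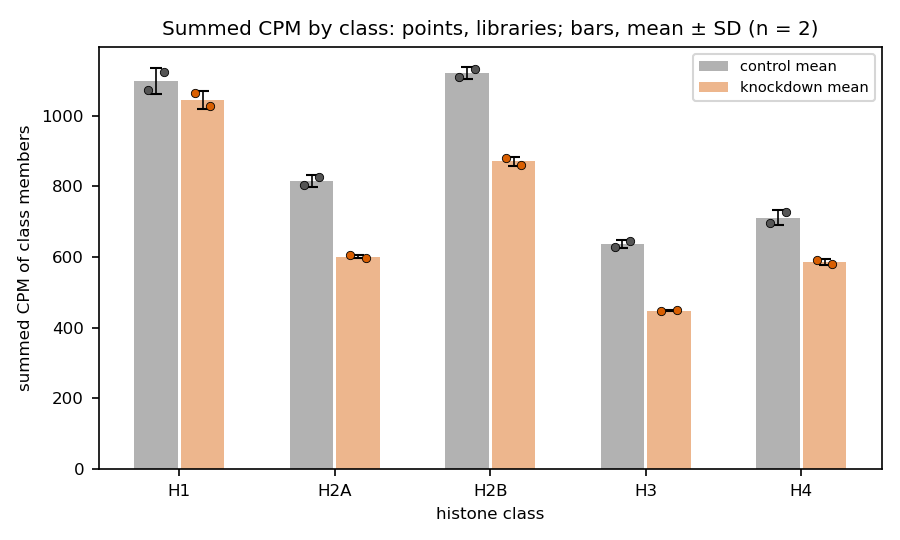
Summed CPM of each histone class. Points are the 4 libraries, bars the group means and error bars the SD of 2 libraries. H2A, H2B, H3 and H4 are lower in both knockdown libraries, and the H1 groups lie close together at 1027 to 1124 CPM.

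Only 3 of the 6 H1 genes were tested, and they went 3 ways. HIST1H1C was at 462 and 492 CPM in the controls and at 401 and 387 CPM in the knockdown, and it was called lower (log2 fold change -0.28, SE 0.029, adjusted p = 1.51e-06). HIST1H1E was at 390 and 406 CPM against 400 and 387, so its groups overlapped and it was not called (log2 fold change -0.02, SE 0.026, adjusted p = 0.622). HIST1H1D was at 219 and 226 CPM in the controls and at 262 and 252 CPM in the knockdown, and it was the one member called higher (log2 fold change 0.21, SE 0.029, adjusted p = 2.56e-05). All 3 encode somatic linker histones. The call on HIST1H1D was kept under every scaling, filter and tool tried and without any 1 library, but not against a fold of 1.2, where its adjusted p was 1. Of the untested genes, HIST1H1A and the testis gene HIST1H1T had 0 to 6 counts a library. HIST1H1B had 0 counts in all 4 libraries, where 3 counts correspond to 0.174 to 0.192 CPM before TMM scaling.

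Of 18 H2A genes, 16 were tested and 11 were called lower. The tested genes with the most CPM were HIST1H2AE, HIST1H2AG, HIST1H2AC and HIST2H2AC. HIST1H2AE was at 116 and 124 CPM in the controls and at 93.3 and 98.6 CPM in the knockdown (log2 fold change -0.32, SE 0.047, adjusted p = 4.69e-05). HIST1H2AG was at 117 and 121 CPM against 83.7 and 76.8 (log2 fold change -0.57, SE 0.050, adjusted p = 2.45e-07). HIST1H2AC was at 107 CPM in both controls and at 91.6 and 87.1 CPM in the knockdown (log2 fold change -0.26, SE 0.046, adjusted p = 0.000287). HIST2H2AC, a member of the smaller HIST2 cluster, had the smallest change of these 4. It was at 89.5 and 91.5 CPM against 76.8 and 79.1 (log2 fold change -0.22, SE 0.048, adjusted p = 0.00178).

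Larger falls came from H2A genes of lower abundance. HIST1H2AI was at 64.9 and 65.3 CPM in the controls and at 35.5 and 35.6 CPM in the knockdown, 0.546 times the control level (log2 fold change -0.87, SE 0.045, adjusted p = 6.52e-10). HIST1H2AM was at 74.2 and 74.0 CPM against 45.2 and 45.5 (log2 fold change -0.71, SE 0.045, adjusted p = 6.2e-09). HIST1H2AD was at 47.5 and 48.1 CPM against 30.6 and 27.8 (log2 fold change -0.71, SE 0.054, adjusted p = 5.46e-08). In these 3 genes the libraries of a group lay close together and the groups were far apart, but the assignment of their reads is uncertain. Of the 50-base coding stretches of HIST1H2AI and HIST1H2AM, 83.0% and 87.1% also occur in annotated transcripts of other histone genes. HIST1H2AD has estimated counts that are not whole. HIST1H2AJ (-0.61), HIST1H2AB (-0.50), HIST2H2AB (-0.50) and HIST1H2AH (-0.48) were also called lower. Genes of the class that were not called were HIST1H2AK (-0.10), HIST2H2AA3 (-0.25), HIST2H2AA4 (-0.26), HIST1H2AL (-0.70, from 13 to 27 counts a library) and HIST3H2A. HIST3H2A had the other sign: it was at 18.6 and 18.7 CPM in the controls and at 22.9 and 20.4 CPM in the knockdown (log2 fold change 0.21, SE 0.087, adjusted p = 0.0569). HIST3H2A was called higher without knockdown replicate 2 (edgeR adjusted p = 0.0152) and with limma-voom (0.0467).

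Of 20 H2B genes, 18 were tested and 13 were called lower. Of the 4 tested genes with the most CPM, 3 were lower. HIST1H2BD, the other, was at 127 and 134 CPM in the controls and at 131 CPM in both knockdown libraries, so the groups overlapped (log2 fold change 0.01, SE 0.040, adjusted p = 0.921). The sign of its value turned with upper-quartile scaling and with library size alone. HIST1H2BK, by contrast, was at 152 and 151 CPM against 109 and 108 (log2 fold change -0.49, SE 0.038, adjusted p = 5.99e-08). HIST2H2BE was at 132 and 127 CPM in the controls and at 103 CPM in both knockdown libraries (log2 fold change -0.34, SE 0.042, adjusted p = 8.77e-06). HIST1H2BC was at 116 and 123 CPM against 87.7 and 84.4 (log2 fold change -0.47, SE 0.047, adjusted p = 1e-06). In these 3 genes both knockdown libraries lay below both controls.

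The H2B genes with the largest changes were less abundant. HIST1H2BB was at 8.70 and 8.49 CPM in the controls and at 4.86 and 5.06 CPM in the knockdown (log2 fold change -0.79, SE 0.14, adjusted p = 0.000208). HIST1H2BO was at 49.5 and 55.0 CPM against 32.2 and 32.0 (log2 fold change -0.70, SE 0.057, adjusted p = 1e-07). HIST1H2BL was at 20.2 and 21.3 CPM against 13.2 and 12.7 (log2 fold change -0.68, SE 0.092, adjusted p = 2.11e-05). The other called genes were HIST1H2BI (-0.59), HIST1H2BN (-0.58), HIST1H2BJ (-0.51), HIST1H2BH (-0.46), HIST1H2BF (-0.45), HIST3H2BB (-0.35) and HIST1H2BG (-0.17). HIST1H2BG was the smallest of the called falls, and its edgeR adjusted p was 0.114 without control replicate 2 and 0.11 without knockdown replicate 2. With DESeq2 on all libraries the adjusted p of HIST1H2BG was 0.102. Besides HIST1H2BD, the genes not called were HIST1H2BM (-0.18), HIST2H2BC (-0.09), HIST2H2BF (0.10) and HIST2H2BA (0.33, from 6 to 16 counts a library). HIST2H2BC and HIST2H2BA have no annotated protein-coding transcript. HIST2H2BF was well counted, at 61.5 and 60.3 CPM in the controls and at 65.3 and 65.0 CPM in the knockdown (adjusted p = 0.0875 in edgeR's test).

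Of 14 H3 genes, 12 were tested and 9 were called lower. HIST1H3B, the H3 gene with the most CPM, was at 165 and 169 CPM in the controls and at 124 and 130 CPM in the knockdown (log2 fold change -0.40, SE 0.037, adjusted p = 4.83e-07). HIST1H3F was at 95.2 and 95.5 CPM against 53.0 and 52.9 (log2 fold change -0.85, SE 0.049, adjusted p = 2.05e-09). HIST1H3C was at 78.1 and 82.7 CPM against 48.4 and 46.7 (log2 fold change -0.76, SE 0.050, adjusted p = 1.01e-08). Both genes had knockdown libraries close together and far below the controls. HIST1H3G was at 74.2 and 79.9 CPM against 56.1 and 54.8 (log2 fold change -0.48, SE 0.051, adjusted p = 2.02e-06). HIST1H3D was at 84.3 and 80.5 CPM against 67.1 and 68.3 (log2 fold change -0.28, SE 0.050, adjusted p = 0.000237). HIST1H3D and HIST1H2AD were the 2 members with estimated counts that are not whole, so the assignment of their reads is uncertain.

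HIST1H3E had the lowest log2 fold change of the 60 histone genes and few counts. It was at 3.40 and 4.30 CPM in the controls and at 2.07 and 2.01 CPM in the knockdown (log2 fold change -0.91, SE 0.23, adjusted p = 0.00353). Without control replicate 2 its edgeR adjusted p was 0.0635. HIST1H3H (-0.68), HIST1H3A (-0.35) and HIST2H3D (-0.24) were also called lower. The call on HIST1H3A was close to the threshold (adjusted p = 0.047 in edgeR's test), and it was lost without control replicate 2 (0.332) and without knockdown replicate 2 (0.107), as well as with DESeq2 (0.217), limma-voom (0.0505) and no filter on low counts (0.105). HIST1H3J (-0.33), HIST2H3A (-0.17) and HIST2H3C (0.10) were not called. Without knockdown replicate 1, HIST1H3J passed the threshold at an edgeR adjusted p of 0.0114.

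Of 15 H4 genes, 11 were tested and 9 were called lower. HIST1H4E, with HIST1H4C among the most abundant of the class, was at 168 CPM in both controls and at 163 and 158 CPM in the knockdown. Its groups did not overlap, but it was not called (log2 fold change -0.07, SE 0.033, adjusted p = 0.114). With library size alone it was called lower, at a log2 fold change of -0.11 and an edgeR adjusted p of 0.0104. HIST1H4C was at 158 and 167 CPM against 129 and 126 (log2 fold change -0.35, SE 0.038, adjusted p = 2.13e-06). HIST1H4D was at 106 and 115 CPM against 90.5 and 89.3 (log2 fold change -0.30, SE 0.048, adjusted p = 0.000124). HIST1H4H was at 95.7 and 103 CPM against 79.3 and 79.2 (log2 fold change -0.33, SE 0.051, adjusted p = 7.43e-05). The log2 fold changes of these 4 abundant genes lay between -0.07 and -0.35, and those of some less abundant H4 genes reached further.

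HIST1H4K was at 9.06 and 7.97 CPM in the controls and at 4.53 and 4.93 CPM in the knockdown (log2 fold change -0.85, SE 0.15, adjusted p = 0.000195). HIST1H4A was at 19.73 and 19.95 CPM against 14.3 and 11.5 (log2 fold change -0.62, SE 0.11, adjusted p = 0.000188). HIST1H4J was at 13.5 and 15.0 CPM against 9.26 and 10.9 (log2 fold change -0.50, SE 0.12, adjusted p = 0.00241), and without control replicate 2 its edgeR adjusted p was 0.069. HIST4H4 (-0.49), HIST1H4B (-0.36) and HIST1H4I (-0.30) completed the called H4 genes. The edgeR adjusted p of HIST1H4I was 0.0531 without control replicate 1. HIST2H4B (-0.16) was not called.

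**Figure D3:**
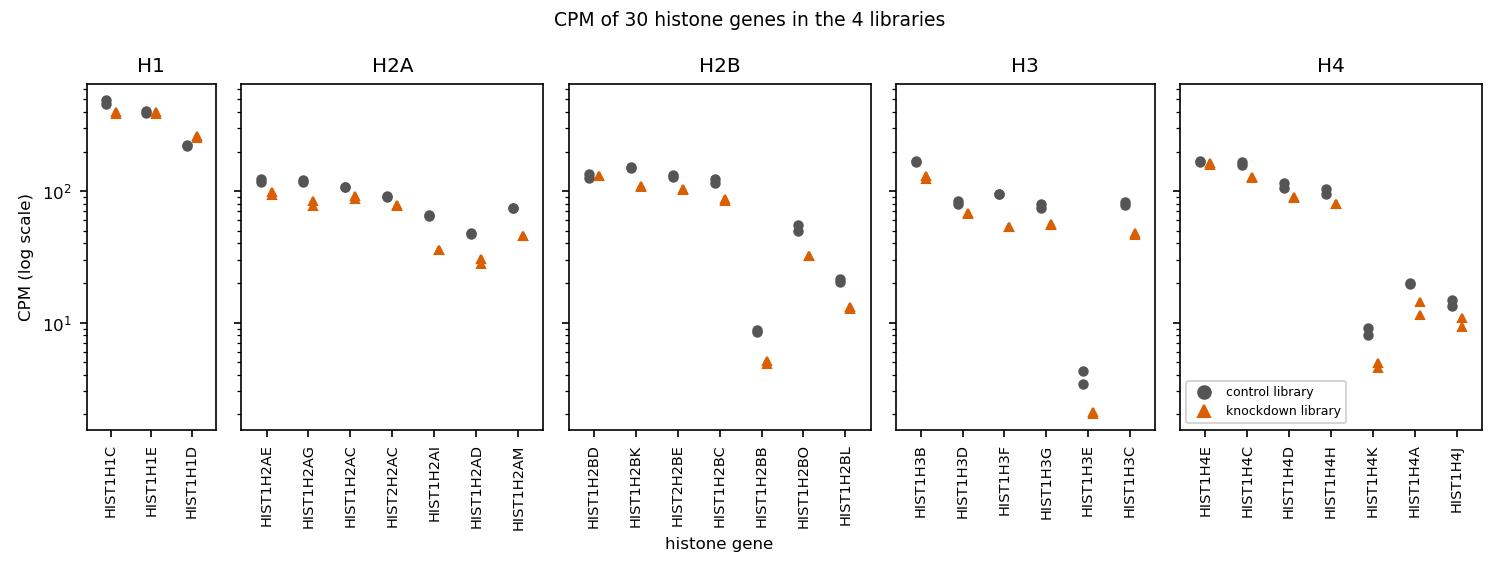
CPM on a log axis of the 30 histone genes chosen by level or change within their class. Circles are the 2 control libraries and triangles the 2 knockdown libraries. The triangles lie below the circles except for HIST1H1D, where they lie above, and for HIST1H1E and HIST1H2BD, where the groups overlap.

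Levels between genes are compared per kilobase of coding sequence, from the control means. Counts are per gene, so reads outside the coding sequence may raise the rank of genes with longer transcripts. HIST1H4E has 312 coding bases and a longest annotated transcript of 1487, whereas HIST1H3B has 411 for both. On that scale HIST1H1C (743) and HIST1H1E (603) were highest, followed by HIST1H4E (539), HIST1H4C (521), HIST1H3B (406) and HIST1H2BK (398). Among these 6, HIST1H1E and HIST1H4E were not called. The median log2 fold change was also taken by bands of mean CPM. It was -0.31 over the 12 tested genes with a mean of 100 CPM or more, of which 8 were lower and 1 higher. It was -0.52 over the 16 genes from 50 to 100 CPM, with 15 lower, and -0.49 over the 18 genes from 10 to 50 CPM, with 16 lower. Under 10 CPM, 4 of 14 were called lower and the median was -0.26. The 13 untested genes had at most 18 counts in any library, and 4 of them (HIST1H1B, HIST1H2APS1, HIST1H3I and HIST1H4G) had 0 in every library. Among the 13 were genes known from testis, namely HIST1H1T, HIST1H2AA, HIST1H2BA and HIST3H3.

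Reads of near-identical copies are uncertain in this gene family. In the GENCODE transcripts, 4 pairs had identical coding sequence: HIST1H4J with HIST1H4K, HIST2H2AA3 with HIST2H2AA4, HIST2H3A with HIST2H3C, and HIST2H4A with HIST2H4B. When the counts of each pair were summed and all genes were fitted again, the HIST1H4J and HIST1H4K sum had 378 and 400 control counts against 213 and 244 knockdown counts (log2 fold change -0.62, SE 0.092, edgeR adjusted p = 5.14e-05). The HIST2 pairs were not called as sums either. Their log2 fold changes were -0.26 for HIST2H2AA3 with HIST2H2AA4, -0.12 for HIST2H3A with HIST2H3C and -0.21 for HIST2H4A with HIST2H4B. These sums were added after the data were seen, and with them 42 of 57 tested members were lower. Coding stretches of 50 bases shared exactly with a transcript of another histone gene gave a wider view. Of 58 tested genes with a coding transcript, 25 shared no such stretch, and 19 of those 25 were lower, with a median log2 fold change of -0.35. In 13 genes more than 50% of the stretches were shared, and of these 7 were lower, with a median of -0.26.

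Many H2A and H2B genes lie head to head and share the DNA between their start sites, which serves as the promoter of both. RefSeq start sites gave 11 such pairs, 193 to 247 bases apart, and both genes were tested in 10. In 7 of the 10 both genes were lower, where 68.8% of all tested H2A genes and 72.2% of all tested H2B genes were lower. The H2A and H2B log2 fold changes of a pair differed by 0.0044 to 0.56, with a median of 0.21. Whether partners moved together more than other H2A and H2B genes was not tested. The stretches between the start sites of 4 pairs follow, from RefSeq on build GRCh38.p14, plus strand. They are the pair with the closest values, the pair with the lowest H2A value, and the pairs where the partners differed most. Capitals mark TATAAA, the motif CCAAT and the octamer ATTTGCAT, each searched on both strands.
HIST1H2AM/HIST1H2BO, chr6:27893186-27893424: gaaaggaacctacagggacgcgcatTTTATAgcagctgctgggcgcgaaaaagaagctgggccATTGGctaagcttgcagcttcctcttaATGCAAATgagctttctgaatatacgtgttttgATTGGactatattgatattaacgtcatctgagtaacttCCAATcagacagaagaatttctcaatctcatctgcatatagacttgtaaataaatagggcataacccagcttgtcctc
HIST1H2AI/HIST1H2BL, chr6:27807930-27808172: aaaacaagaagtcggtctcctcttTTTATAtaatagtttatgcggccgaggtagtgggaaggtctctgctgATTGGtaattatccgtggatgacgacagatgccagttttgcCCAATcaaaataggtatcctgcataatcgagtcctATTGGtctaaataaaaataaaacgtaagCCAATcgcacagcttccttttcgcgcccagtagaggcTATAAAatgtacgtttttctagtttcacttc
HIST1H2AK/HIST1H2BN, chr6:27838376-27838568: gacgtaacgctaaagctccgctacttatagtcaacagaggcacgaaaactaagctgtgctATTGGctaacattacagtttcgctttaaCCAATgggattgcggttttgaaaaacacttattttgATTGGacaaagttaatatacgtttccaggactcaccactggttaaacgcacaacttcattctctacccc
HIST3H2A/HIST3H2BB, chr1:228457874-228458102: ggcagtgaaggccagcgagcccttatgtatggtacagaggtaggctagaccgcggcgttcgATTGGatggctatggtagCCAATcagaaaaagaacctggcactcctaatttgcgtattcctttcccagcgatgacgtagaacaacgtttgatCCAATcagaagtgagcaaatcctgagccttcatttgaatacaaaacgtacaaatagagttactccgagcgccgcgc

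In the first stretch the octamer, known to bind the POU factor encoded by POU2F1, stands between CCAAT matches, and the pair moved together. HIST1H2AM had a log2 fold change of -0.71 and HIST1H2BO of -0.70. The second stretch holds TATAAA near both ends, and its genes HIST1H2AI and HIST1H2BL had log2 fold changes of -0.87 and -0.68. In the third, HIST1H2BN was at 78.5 and 79.1 CPM in the controls and at 53.7 and 51.5 CPM in the knockdown (log2 fold change -0.58), whereas HIST1H2AK was at 16.6 and 19.2 CPM against 15.99 and 17.52 (log2 fold change -0.10). In the fourth, HIST3H2BB was at 42.7 and 39.6 CPM against 32.0 and 32.5 (log2 fold change -0.35), whereas its partner HIST3H2A had a log2 fold change of 0.21. The third and the fourth stretch hold CCAAT but neither TATAAA nor the octamer in exact form. The second stretch, of a pair with both genes lower, also lacks the octamer in exact form, and pairs not shown differ as well. HIST1H2AJ and HIST1H2BM, whose values differed by 0.44, have both TATAAA and the octamer between them. HIST1H2AD and HIST1H2BF, which were both lower, have no TATAAA. These stretches describe 4 pairs and test nothing.

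**Figure D4:**
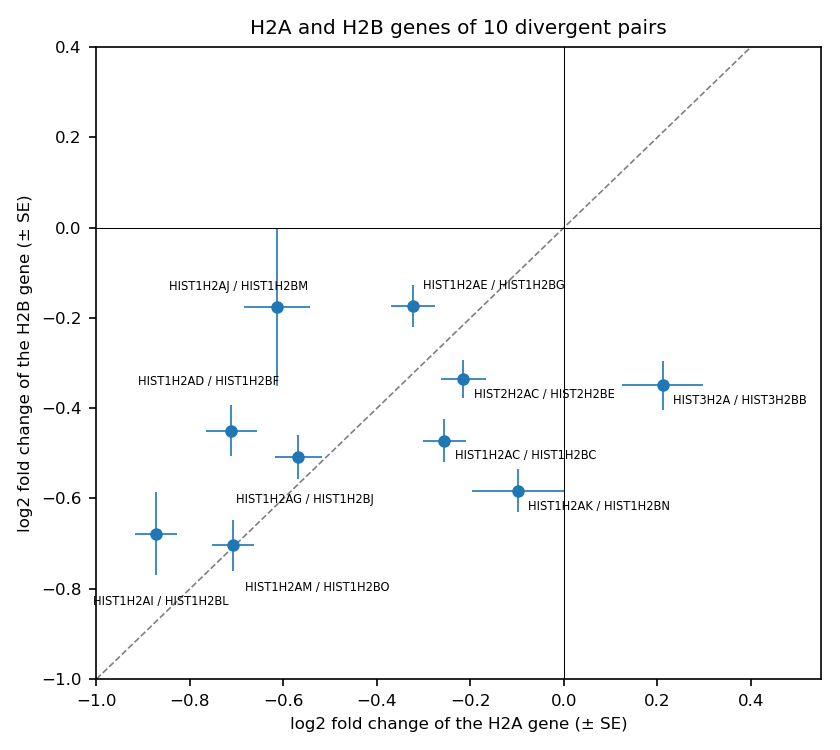
Log2 fold change of the H2A gene against that of its H2B partner in the 10 head-to-head pairs with both genes tested. Bars are standard errors and the dashed line marks equal change. HIST1H2AM and HIST1H2BO lie on the line, and HIST3H2A with HIST3H2BB lies to the right of 0.

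The promoter motifs differed by class. RefSeq promoters, 250 bases before to 50 after the start site, were found for 61 members. TATAAA was in 67.2% of them against 13.99% of 27305 promoters of all genes, and CCAAT in 83.6% against 39.7%. The octamer was in 42.6% of the members and in 2.19% of all promoters. It was found in 11 of 14 H2A and 14 of 18 H2B promoters, in 1 of 10 H3 promoters and in 0 of 6 H1 and 0 of 13 H4 promoters. CCAAT was in every matched H1, H2A, H2B and H3 promoter and in 3 of 13 H4 promoters. Among tested H2A and H2B genes with a matched promoter, 19 of the 22 with the octamer were lower (median log2 fold change -0.49) and 4 of the 7 without it (-0.35). H3 and H4 genes with no octamer match were also lower, so calls were not limited to promoters with it.

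Histone mRNA ends were read from the GENCODE transcripts. A 16-base stem-loop match was found past the stop codon in 31 members, in 5 forms. Of 70 members with a coding transcript, 34 had at most 20 annotated bases after the stop codon, with little or no room for a match. A member without a match is therefore not known to lack a stem-loop. An example of each form is shown because those of H4 genes stand apart from the rest, with the 16 bases in capitals. Positions 3, 4, 10, 13 and 14 of the 16 were left free in the search.
HIST1H2AI: ccaaaGGCTCTTTTCAGAGCCacctaca
HIST1H2BC: ccaaaGGCTCTTTTAAGAGCCacccaga
HIST1H2AG: ccaacGGCTCTTTTCAGGGCCacccacg
HIST1H4H: ccaaaGGCCCTTTTCAGGGCCgcccact
HIST1H4I: aaaaaGGCCCTTTTTAGGGCCcctaagc

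The form of HIST1H2AI was the most frequent, in 17 genes of H2A, H2B and H3, and that of HIST1H2BC was in 5 genes of H2B and H3. HIST1H2AG alone had the third form. The forms of HIST1H4H (5 genes) and HIST1H4I (3 genes) were found in H4 genes only, among the 31 with a match. Of the 16 tested genes with the most frequent form, 10 were lower (median log2 fold change -0.29), and of the 5 tested with the HIST1H4H form, 4 were (-0.36). Of the 4 tested with the HIST1H2BC form, 3 were lower (-0.46), and HIST1H2BD was the one that was not. A called fall was thus seen with each of the 5 forms.

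The annotated transcripts also differ in how far they run past the stop codon. This length was read whether or not a stem-loop match was found, so a long annotated end need not run beyond a stem-loop. HIST1H2BD has 384 annotated bases after the stop codon, but its stem-loop match is followed by 39 at most. Of 23 tested core histone genes with 200 or more annotated bases after the stop codon, 16 were lower, with a median log2 fold change of -0.34. Of 24 annotated with at most 20 such bases, models that may leave out the mRNA end, 20 were lower, with a median of -0.50. The 8 between these limits had 6 lower and a median of -0.35. HIST1H2BD, HIST1H4E, HIST2H2BF and HIST3H2A, well-counted core genes that were not called, all had long annotated ends. HIST1H2AK, also not called, did not. HIST1H3G, HIST1H3H and HIST1H2BN had long annotated ends and were called lower. The table holds 1 value per gene, so stem-loop and polyadenylated mRNAs of a gene were not separated.

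The position in the genome was described from the gene order in GENCODE. Of 45 tested HIST1 genes 37 (82.2%) were lower and of 12 HIST2 genes 4 (33.3%), against 24.9% of all tested genes. Of 2 HIST3 genes 1 was lower, and the HIST4 gene HIST4H4 was lower. Of the 12 HIST2 genes, 5 had a mean of at least 10 CPM. HIST2H2BA and HIST2H2BC, which have no annotated protein-coding transcript, are among the 12 and were not called. Among core genes with a mean of at least 10 CPM, 32 of 35 in HIST1 were lower (median log2 fold change -0.48) and 4 of 5 in HIST2 (-0.24). The HIST1 genes stand in 2 groups on chromosome 6, divided at the widest distance between neighbouring starts, after HIST1H4H. Core genes before that gap had a median of -0.42, with 22 of 24 lower, and those after it, from HIST1H2BJ to HIST1H2BO, had -0.58, with 14 of 18 lower. This division was chosen after the values were seen.

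Within the second group, neighbouring genes differed widely in level. HIST1H2AK, at 17.9 ± 1.82 CPM in the controls, and HIST1H2AM, at 74.1 ± 0.182 CPM (SD, n = 2), enclose a run of genes with few or no counts. Along that run HIST1H2AL had 20, 27, 13 and 13 counts in the 2 controls and the 2 knockdown libraries. HIST1H1B and HIST1H3I had 0 in all 4 libraries, and HIST1H4L had 1, 2, 0 and 3. HIST1H3J, the last gene before HIST1H2AM, had 88, 120, 88 and 61. The gene models used for counting were not read here, so a count of 0 is given as the table lists it and not as absent expression.

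**Figure D5:**
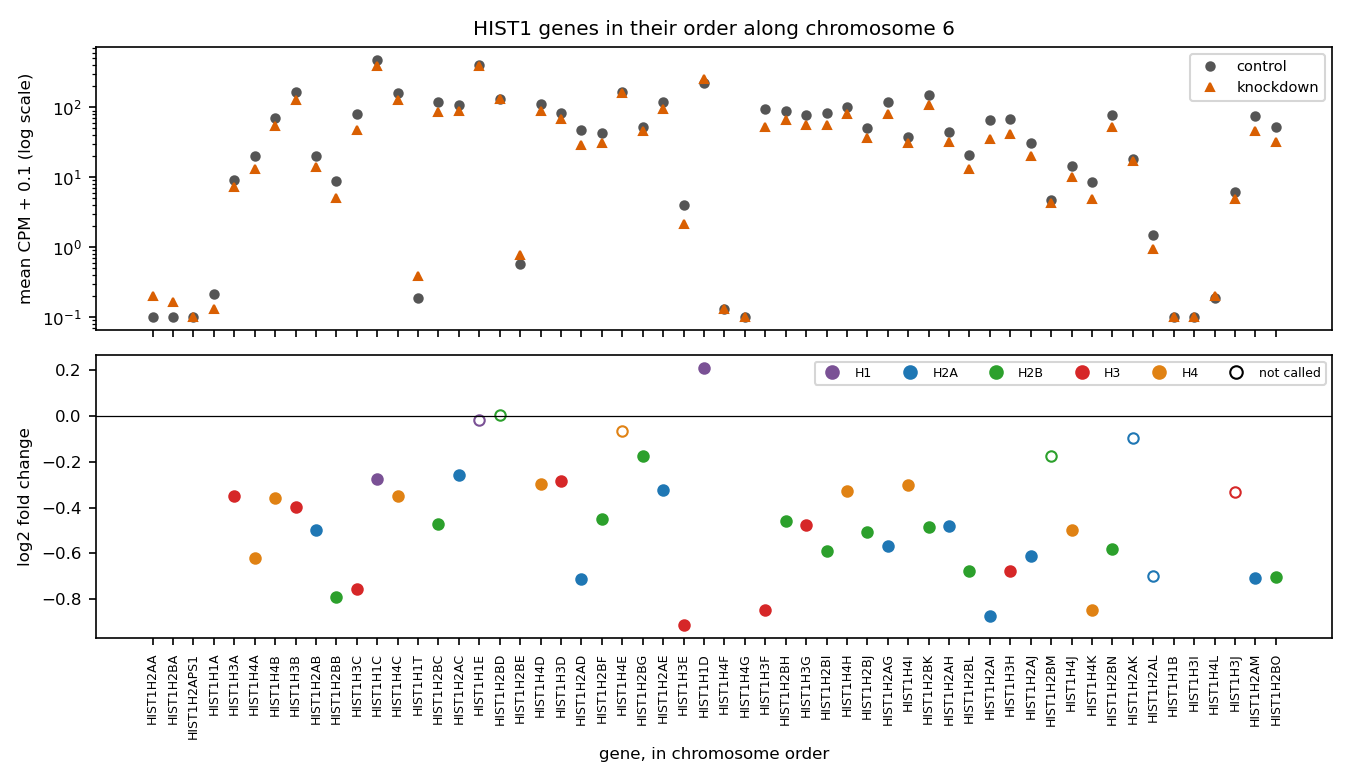
HIST1 genes in their order along chromosome 6. The upper panel gives mean CPM plus 0.1 on a log axis in control and knockdown, and the lower panel the log2 fold change of the tested genes by class, open where not called. Called falls are spread from HIST1H3A to HIST1H2BO, with none from HIST1H2AK to HIST1H3J, and HIST1H1B and HIST1H3I lie at 0 CPM.

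Genes that make, process and handle histones were read against the same background, 24.9% of all tested genes lower and 25.1% higher. Of 25 factors of histone gene transcription and mRNA 3' end formation, 4 were lower and 12 higher, with a median log2 fold change of 0.16. SLBP, which binds the stem-loop, had 1835 and 1875 control counts against 1347 and 1381 knockdown counts, and it was lower (-0.29, SE 0.045, adjusted p = 6.42e-05). Higher genes with the smallest adjusted p were NCBP2 (0.46) and NCBP1 (0.37) of the nuclear cap-binding complex, the terminal uridylyltransferase ZCCHC6 (0.50) and the octamer factor POU2F1 (0.41). NPAT, the coactivator of the histone clusters, was higher by a log2 fold change of 0.16 (adjusted p = 0.0259 in edgeR's test). The transcripts of NPAT and POU2F1 thus had the other sign from most histone genes.

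Of 22 histone chaperones and assembly factors, 12 were lower and 3 higher, with a median log2 fold change of -0.15. ASF1B, a chaperone of H3 and H4, was lower by the widest margin of the list (-0.83, SE 0.092, adjusted p = 2.97e-06). SSRP1 (-0.33), a subunit of the FACT complex, and ANP32E (-0.39), a chaperone of the variant H2A.Z, were lower, and NAP1L1 (0.24) was higher. Of 12 replication-independent histone genes, which supply histones outside S phase, 10 were tested, with 4 lower, 2 higher and a median of -0.09. Among them the linker genes H1FX (0.30) and H1F0 (-0.23) moved in opposite directions, H2AFV (-0.32) was lower and H3F3B (0.18) higher.

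Of 28 S phase genes, 11 were lower and 7 higher, the latter near the 25.1% of all tested genes, and the median log2 fold change was -0.04. CDC6 (-0.76), a loader of the replicative helicase, CLSPN (-0.63), a checkpoint adaptor at forks, and TK1 (-0.55), thymidine kinase, were lower. MCM7 (0.32), a helicase subunit, was higher. Of the 57 tested core histone genes, 42 were lower and 0 higher. SLBP and 2 cyclin E genes stand in both this list and that of the 3' end factors. Of 29 other RNAs known to lack a poly(A) tail, 17 were in the count table. Among these 16 were tested, with 1 lower, 10 higher and a median of 0.24. Control means of the 16 ran from 1.37 CPM (RNU11) to 10864 CPM (RPPH1). RMRP was at 4825 CPM in the controls, where the mRNA of GAPDH was at 4163 CPM. The degree of poly(A) selection was not tested. RMRP (0.19), RNU12 (0.59) and SCARNA5 (0.39) were higher and SCARNA9 (-0.47) lower. These lists moved beside the histone genes, and their part in the histone result was not tested.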

How the data were processed

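RNA of 2 control and 2 knockdown libraries of SUM159 cells was described in the labels as polyA RNA, although most histone mRNAs have no such tail. The submitters' processing notes name STAR and GRCh37, and no source used here names the counting program or its strand setting. The deposited values are estimated counts per gene, not whole in 591 genes, of which 2 are members. They were rounded. Genes were kept by filterByExpr of edgeR 4.0.16 (minimum count 10), scaled by TMM and tested in R 4.3.3 with edgeR's quasi-likelihood test, two-sided, with Benjamini-Hochberg adjustment over 13915 genes. The script was tested on simulated data. Alternatives were other scalings and filters, DESeq2 1.42.0, limma 3.58.1, stricter thresholds and leaving out libraries.

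Values were printed by library for up to 4 tested genes per class with the most CPM, up to 3 with the largest fold change and any called higher, and of other lists for up to 4 called genes with the smallest adjusted p. SLBP, NPAT, HIST3H2A, HIST3H2BB, HIST2H2BF, HIST1H2AK, HIST1H2BN and the genes of the low-count run were given as well, outside this rule, after their values were seen. Members and lists were chosen with earlier results of these data known. Transcripts and gene order came from GENCODE v29 (GRCh38) and promoters from RefSeq (GRCh38.p14), which are not the build of the counts, so they serve as description only. Symbols of 69 members matched RefSeq. Class sums were not tested.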

Additional observations from a re-analysis of the deposited data

How the results depend on the processing

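Between 39 and 44 members were called lower under every alternative but the test against a fold of 1.2, which gave 29. The number called higher was 2 with limma-voom and with the replicate block, where HIST3H2A joined HIST1H1D (adjusted p = 0.0467 in limma-voom and 0.0375 in edgeR with the block), 1 to 2 when single libraries were left out, and 0 with glmTreat at a fold of 1.2. That test called 1305 of all genes lower and 1216 higher. The replicate block, fitted on numbers that samples share only by name (correlation of deviations 0.177), called 43 members lower, 3602 genes lower and 3609 higher. With library size alone the class log2 ratios were -0.12 (H1), -0.48 (H2A), -0.41 (H2B), -0.55 (H3) and -0.33 (H4), and all genes had a median of -0.044. Leaving out 1 library gave -0.11 to -0.041 for H1, -0.46 to -0.42 for H2A, -0.38 to -0.35 for H2B, -0.53 to -0.49 for H3 and -0.31 to -0.25 for H4. HIST1H2BD turned to -0.0040 with upper-quartile scaling, to -0.040 with library size alone, and ranged from -0.034 to 0.043 when single libraries were left out. HIST1H1E ranged from -0.044 to 0.0089 in the same way, above 0 without control replicate 2 and without knockdown replicate 2. Of 464 values of SPEN and the 30 histone genes chosen by level or change, over 15 alternatives, 447 kept direction and side of the threshold. With 2 libraries a group, genes under 10 CPM have wide standard errors, so small changes there were not detectable.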
